A study of Mus with 9 samples.

Results

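The genes described are the 4 members of the Lingo family (Lingo1 to Lingo4) and 5 genes of the Nogo receptor complex (Rtn4, Rtn4r, Rtn4rl1, Rtn4rl2 and Omg), 9 of the 22662 gene symbols on the array. They were chosen by symbol as a family, and the family was picked on the deep difference of Lingo2 between SAMP8 and SAMR1, so that value is given as a description and supports nothing. Each of the 9 genes had 1 probe set, the group of short probes that the array reads as 1 transcript cluster. Hippocampal RNA was measured on Clariom S Mouse arrays in 3 groups of male mice that were 16 weeks old when the study began, with 3 arrays per group. The SAMR1 group, a senescence-resistant strain, and the SAMP8 group, a senescence-prone strain, received vehicle by mouth for 30 days, and the TG-treated SAMP8 group received trigonelline (TG), a plant alkaloid, at 5 mg/kg per day for 30 days. All 3 groups were then trained in a water maze, with TG dosing kept up in the treated group, before the tissue was taken, so the mice were older than 16 weeks by then. The vehicle is saline in the sample records and water in the methods. SAMR1 and SAMP8 are different inbred lines of the same age, so a difference between them is a difference of strain and was not followed over age.

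Lingo1 encodes a transmembrane protein with leucine-rich repeats and an immunoglobulin domain. It joins the Nogo receptor at the neuron surface, and the complex passes a signal from myelin that halts the growth of axons. Rtn4 encodes the ligand Nogo, and Omg encodes oligodendrocyte myelin glycoprotein, which binds the same receptor. In the adult hippocampus the system is known for limiting the remodelling of axons, dendrites and synapses. Lingo2, Lingo3 and Lingo4 are paralogs of Lingo1 whose roles are less well known.

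Values are the authors' group averages on the log2 scale, where 1 unit is a doubling of signal. The deposited tables give 1 average per group, so the spread between the 3 arrays is not known here, no difference was tested, and neighbours in any order of the groups cannot be told apart from their spread. Differences larger than 1.5-fold, which is 0.585 on the log2 scale, were counted and set beside the share of all 22206 probe sets that differed as much. Averages were rounded to 0.01, so a difference can be off by 0.01. Levels were compared between groups gene by gene. The mean signal of a gene was placed against the array only to find probe sets of like signal and to mark dim ones. In bulk tissue, fewer cells of a type and less RNA per cell cannot be told apart.

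Of the 9 genes, 1 was lower and 1 was higher in SAMP8 than in SAMR1 by more than 1.5-fold. Over all probe sets 6.08% were lower and 5.00% higher by that much, and since Lingo2 was picked on this comparison nothing is read from its count. The median difference of the 9 genes was -0.06, against 0.00 over all probe sets. Lingo2 and Lingo3 were the genes past the limit, and the other 7 lay within 0.42 of 0.

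**Figure D1:**
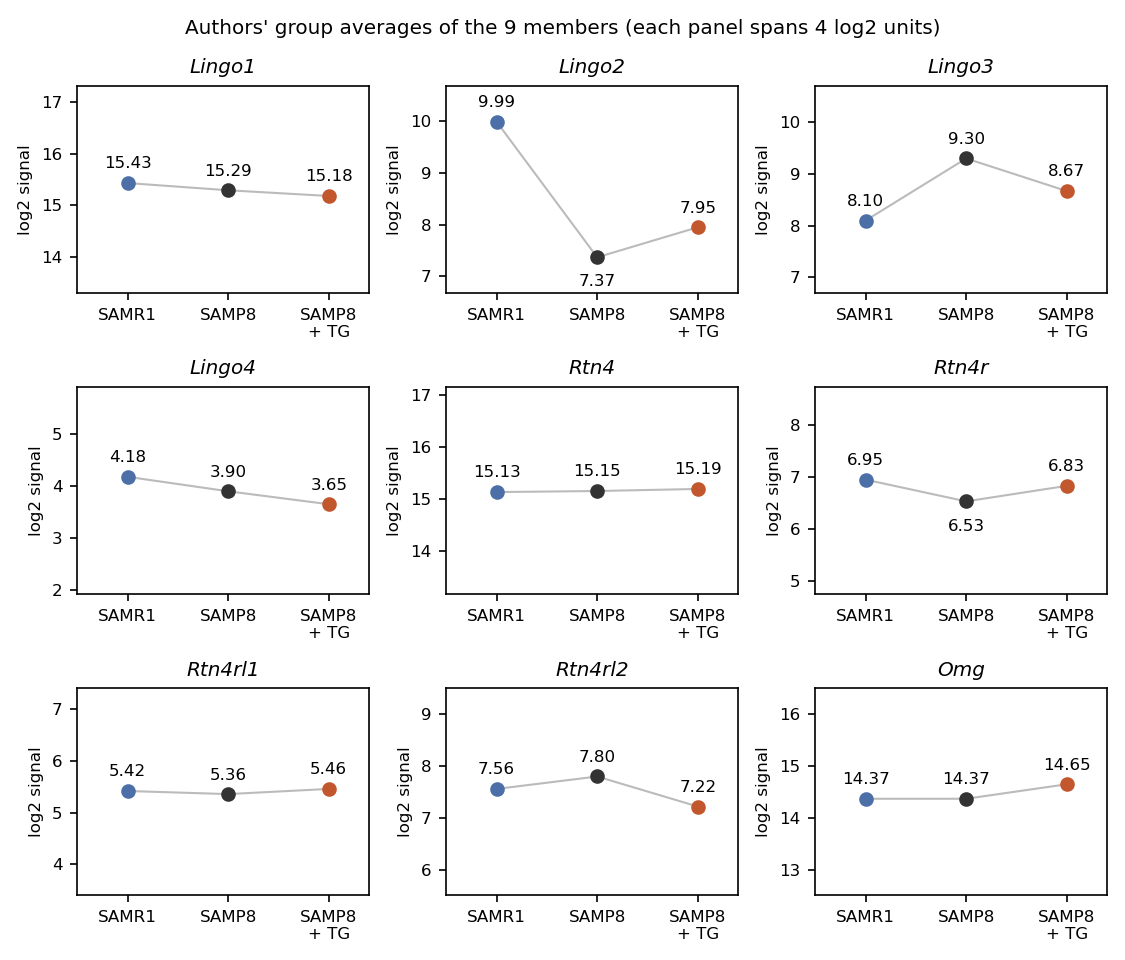
Authors' group averages (log2 signal, vertical axis) of the 9 genes in SAMR1, SAMP8 and TG-treated SAMP8, 1 panel per gene and 4 log2 units per panel; each point is 1 average of 3 arrays and no error is available. Lingo2 drops from 9.99 to 7.37 between SAMR1 and SAMP8, Lingo3 goes from 8.10 to 9.30, and Rtn4 and Rtn4rl1 are nearly level.

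The average of Lingo2 was 9.99 for SAMR1, 7.37 for SAMP8 and 7.95 after TG. Both SAMP8 groups stood well below SAMR1, and the TG-treated group lay nearer to untreated SAMP8 than to SAMR1. SAMP8 was lower than SAMR1 by 6.15-fold, a difference of -2.62, and 8 of the 22206 probe sets had a lower one. Of these 8, 7 carry only symbols of predicted (Gm) genes, and the last lists Gmcl1l beside such symbols. Between TG-treated and untreated SAMP8 the difference of Lingo2 was 0.58, or 1.49-fold, and 8.64% of all probe sets differed at least as much in either direction. Among the 1818 probe sets whose mean signal lay within 0.5 of that of Lingo2, the share was 11.4%. TG-treated SAMP8 remained 4.11-fold below SAMR1, a difference of -2.04, and 3 probe sets had a lower one. This comparison rests on the same SAMR1 average that chose Lingo2, so it too is only a description.

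Lingo2 lies on chromosome 4 from 35696778 to 36951744 (GRCm38), a span of 1254967 bases, the longest of the 9 genes. RefSeq places 3 miRNA genes (Mir873a, Mir873b and Mir876) and 2 pseudogenes inside that span, and none of them was measured under its own symbol. The genes on either side were examined to see whether the low signal in SAMP8 extended beyond Lingo2. The nearest measured genes before it, 0.54 Mb away, are Mob3b (7.26, 7.20 and 7.06 in the order SAMR1, SAMP8, TG-treated SAMP8) and Ifnk, an interferon gene (3.61, 3.42 and 3.32). The nearest after it is 1700009N14Rik, 2.50 Mb away (2.99, 2.97 and 3.17). None of these neighbours differed between the strains by more than 0.19.

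Within 5 Mb of Lingo2, 62 of 188 annotated genes were measured, 28 before it and 34 after it. Their median difference between SAMP8 and SAMR1 was 0.02, and the lowest, -0.60, was that of Tmem215. This was the only neighbour past 1.5-fold in the lower direction, while 5 were past it in the higher direction, where 6.08% of all probe sets were lower and 5.00% higher by that much. Among those 5, Dctn3 and Ccl27a lie close together, 4.76 to 4.82 Mb beyond the end of Lingo2, and Rragd (0.66) and Chmp5 (0.62) lie elsewhere in the window. Ccl27a, a chemokine gene, stood at 9.88 for SAMR1, 13.92 for SAMP8 and 13.81 after TG. It has near-identical copies in the mouse genome, so its probe set may read more than 1 gene. In the same order, Dctn3 stood at 10.36, 12.30 and 12.96. With TG, 1 neighbour was higher (Dctn3, 0.66) and 4 were lower, and the lowest was Nol6 at -0.92, beside 4.48% and 3.74% of all probe sets. Between TG-treated SAMP8 and SAMR1, 7 neighbours were higher and 3 lower, beside 5.62% and 4.83% of all probe sets. No measured gene of this window came near the strain difference of Lingo2 in the lower direction. However, the first 2.50 Mb after it hold no measured gene, and dim neighbours have little room to fall. A sequence difference between the strains under the probes of Lingo2 and a difference in its RNA cannot be told apart in these averages.

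**Figure D2:**
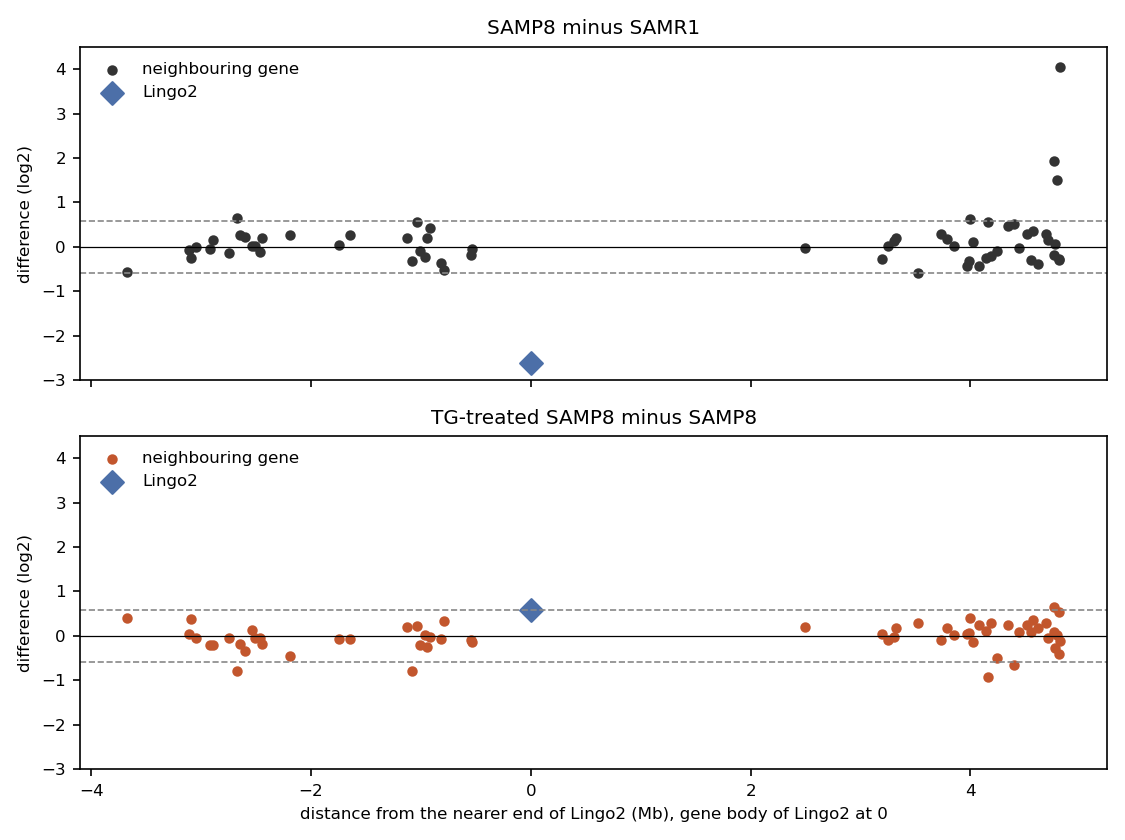
Difference of the group averages (log2, vertical axis) for Lingo2 (diamond) and the 62 measured genes within 5 Mb (points) by distance from its nearer end in Mb, for SAMP8 minus SAMR1 above and TG-treated SAMP8 minus SAMP8 below; dashed lines mark 1.5-fold. Lingo2 stands at -2.62 in the upper panel while its neighbours lie between -0.60 and 4.04.

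The 5 named genes whose pattern over the 3 averages lay closest to that of Lingo2 were Erdr1, Gm14345, Gm21887, Gm3750 and Gm21870, by the Euclidean distance of the differences between SAMP8 and SAMR1 and between TG-treated and untreated SAMP8. Erdr1 had averages of 14.17, 11.68 and 12.18 in SAMR1, SAMP8 and TG-treated SAMP8, at a distance of 0.15. The other 4 are predicted genes at distances of 0.23 to 0.38. Only 2 differences enter this measure.

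Lingo3 ran in the other direction. Its averages were 8.10 for SAMR1, 9.30 for SAMP8 and 8.67 after TG, so that SAMP8 was highest and the TG-treated group lay between the others. SAMP8 was higher than SAMR1 by 2.30-fold, a difference of 1.20, and 95 probe sets had a higher one. TG-treated SAMP8 was lower than untreated SAMP8 by 1.55-fold (-0.63), and 6.64% of all probe sets and 8.09% of the 1730 of like signal differed at least as much in either direction. TG-treated SAMP8 stood 0.57 above SAMR1, just under the limit of 1.5-fold. The SAMP8 average enters the strain difference with a plus sign and the TG difference with a minus sign, so these values are not independent of each other. Lingo3 is on chromosome 10 from 80832801 to 80844039.

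Lingo1, on chromosome 9 from 56618460 to 56796310, is the member that forms part of the receptor complex. Its averages were 15.43 for SAMR1, 15.29 for SAMP8 and 15.18 after TG. The 3 averages spanned 0.25, and each of the differences between groups was matched or passed by 43.7% to 70.2% of all probe sets. Lingo4, on chromosome 3 from 94399219 to 94404501, had averages of 4.18, 3.90 and 3.65 in the same order. It was the only member whose mean signal fell in the bottom 25% of the array. Its difference between TG-treated SAMP8 and SAMR1 was -0.53, and 8.08% of the 4420 probe sets of like signal differed at least as much. Of the 4 Lingo genes, Lingo2 and Lingo3 thus differed between the strains in opposite directions, and Lingo1 and Lingo4 differed by less than 1.5-fold in each comparison.

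**Figure D3:**
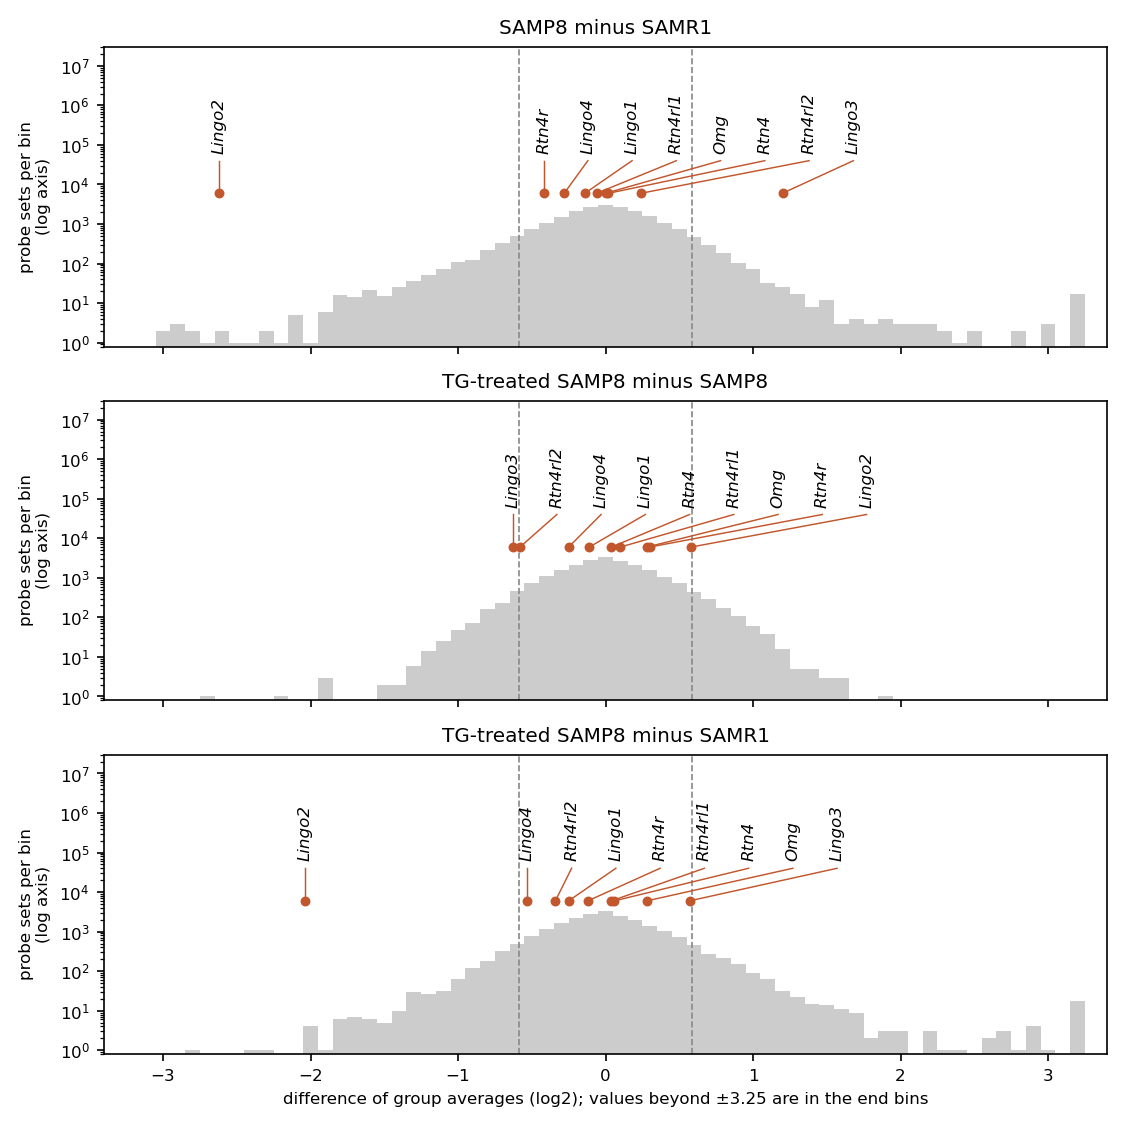
Differences of the group averages (log2, horizontal axis) of all 22206 probe sets as grey histograms (probe sets per bin of 0.1, log axis) for the 3 comparisons, with the 9 genes as points placed at a fixed height above them; dashed lines mark 1.5-fold. Lingo2 lies in the lower tail against SAMR1 at -2.62 and -2.04, and the genes other than Lingo2 and Lingo3 lie between the dashed lines.

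The ligand genes Rtn4 and Omg differed by less than 1.5-fold in each comparison. Rtn4, on chromosome 11 from 29692898 to 29744414, averaged 15.13 for SAMR1, 15.15 for SAMP8 and 15.19 after TG, a span of 0.06. At least 83.9% of all probe sets differed as much or more in each comparison. The gene gives rise to the forms Nogo-A, Nogo-B and Nogo-C, which 1 probe set cannot separate. Its last part overlaps Eml6 in the annotation, and Eml6 had averages of 6.09, 5.95 and 5.84. Omg, on chromosome 11 from 79500982 to 79504082, averaged 14.37 for SAMR1, 14.37 for SAMP8 and 14.65 after TG. It was equal in the strains and higher by 0.28 (1.21-fold) with TG, and 36.5% of all probe sets differed at least as much. Omg lies inside the span of Nf1, the gene of the RAS regulator neurofibromin. Nf1 had averages of 12.92, 13.18 and 12.55, and its difference with TG, -0.63, had the opposite sign to that of Omg.

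Of the 3 receptor genes, Rtn4r encodes the Nogo receptor itself, a protein tied to the membrane by a lipid anchor. It lies on chromosome 16 from 18127642 to 18152408. Its averages were 6.95 for SAMR1, 6.53 for SAMP8 and 6.83 after TG, lowest in SAMP8. The strain difference was -0.42, and TG-treated SAMP8 was higher than untreated SAMP8 by 0.30. Of all probe sets, 22.7% and 33.5% differed at least as much in the 2 comparisons. Rtn4rl1, on chromosome 11 from 75193993 to 75267769, encodes a receptor for chondroitin sulfate proteoglycans of the matrix. It stood at 5.42, 5.36 and 5.46, a span of 0.10. Rtn4rl2, on chromosome 2 from 84871297 to 84888641, encodes a receptor that binds myelin-associated glycoprotein, and it had averages of 7.56, 7.80 and 7.22. It was lowest with TG, with a difference from untreated SAMP8 of -0.58 (1.49-fold), just inside the limit. Among the 1980 probe sets of like signal, 11.9% differed at least as much.

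Between TG-treated and untreated SAMP8, 0 of the 9 genes were higher and 1 (Lingo3) was lower by more than 1.5-fold, against 4.48% and 3.74% of all probe sets. The median of the 9 differences was 0.04, and that of all probe sets was 0.01. Between TG-treated SAMP8 and SAMR1, 0 were higher and 1 (Lingo2) was lower, against 5.62% and 4.83% of all probe sets. Lingo2 was picked on its SAMR1 and SAMP8 averages, so nothing is read from this count. Here the median was -0.12 for the 9 genes and -0.01 for all probe sets. With 9 members, 1 gene past the limit is the smallest count above 0, so it cannot be set closely against such shares.

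The further genes of the pathway were taken from 5 lists with 23 genes, all of them measured. In SAMP8 minus SAMR1, 1 of the 23 was higher and 0 were lower by more than 1.5-fold, with a median of 0.01. With TG, 1 was higher and 0 were lower, with a median of -0.01. Between TG-treated SAMP8 and SAMR1, 0 passed the limit in either direction, with a median of 0.09. The shares of all probe sets for these comparisons are those given above.

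The gene higher in SAMP8 was Rhoa, the small GTPase through which the receptor complex acts on the cytoskeleton. Its averages were 9.72 for SAMR1, 10.38 for SAMP8 and 10.13 after TG, a strain difference of 0.66. Limk1, a kinase that phosphorylates cofilin, differed by 0.46 between the strains, with averages of 8.96, 9.42 and 9.18. The kinases that act downstream of RhoA stood at 12.02, 11.89 and 11.53 (Rock1) and at 11.43, 11.19 and 11.13 (Rock2), and both were slightly lower in SAMP8 than in SAMR1. The remaining downstream genes were Arhgdia, Limk2, the cofilin gene Cfl1, the myosin phosphatase subunit Ppp1r12a, the axon growth gene Dpysl2 and the kinase Wnk1. Their strain differences ran from -0.18 (Cfl1) to 0.20 (Dpysl2 and Wnk1), and with TG from -0.28 (Ppp1r12a) to 0.28 (Cfl1).

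The gene higher with TG was Mag, which encodes myelin-associated glycoprotein, another ligand of the Nogo receptors. Its averages were 6.87 for SAMR1, 6.66 for SAMP8 and 7.37 after TG, a difference of 0.71 with TG. The other ligands and antagonists were Lgi1, Adgrb1, Olfm1, Crtac1 and Tnfsf13b, and their differences with TG ran from -0.07 to 0.21. Adgrb1, an adhesion receptor of neurons, had the highest strain difference of this list, with averages of 14.27 in SAMR1 and 14.61 in SAMP8. The co-receptors Ngfr, the low-affinity neurotrophin receptor, and Tnfrsf19 differed between the strains by -0.39 and -0.13. The other receptors for Nogo-A, Pirb and S1pr2, differed by -0.08 and -0.31. For each of the reticulon paralogs Rtn1, Rtn2 and Rtn3, the 3 averages lay within 0.16.

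**Figure D4:**
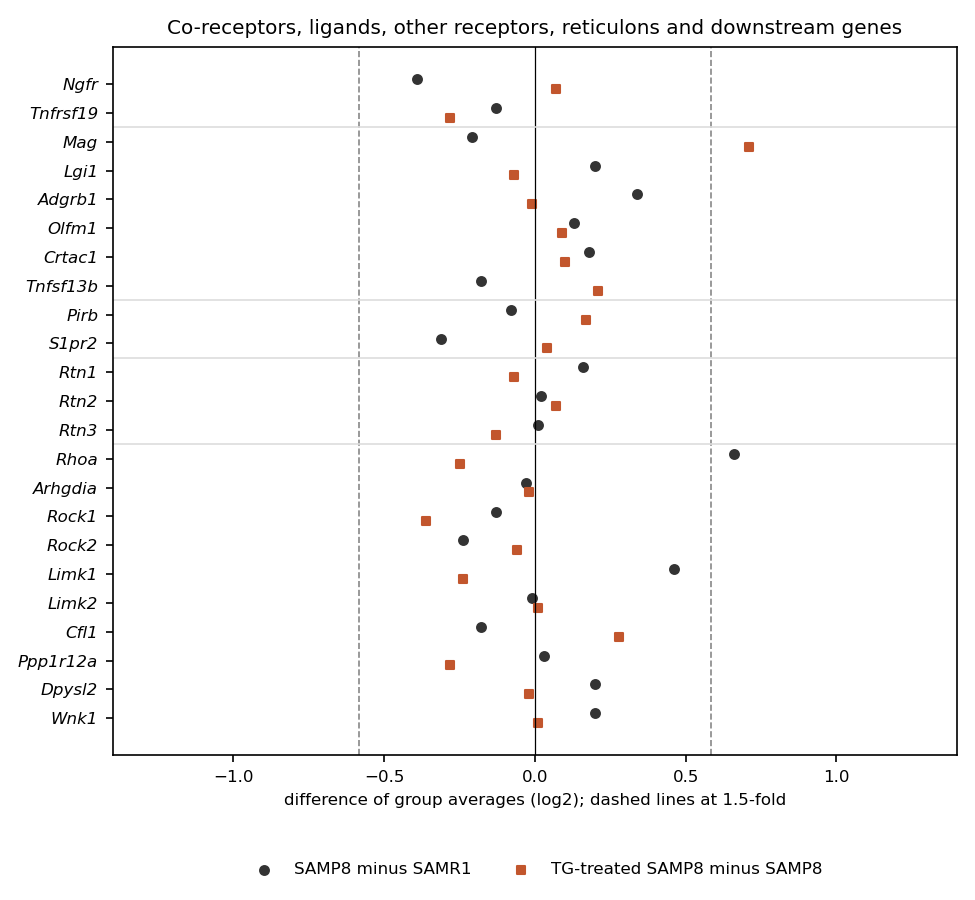
Differences of the group averages (log2, horizontal axis) of the 23 pathway genes, grouped from top to bottom as co-receptors, ligands and antagonists, other receptors, reticulons and downstream genes; circles are SAMP8 minus SAMR1, squares are TG-treated SAMP8 minus SAMP8, and dashed lines mark 1.5-fold. Rhoa at 0.66 and Mag at 0.71 are the 2 values beyond the lines.

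Mag is made by oligodendrocytes and Omg by both oligodendrocytes and neurons, so lists of cell markers are given beside them. Of 12 oligodendrocyte and myelin markers (Mag among them), 11 were higher with TG than in untreated SAMP8, 3 of them by more than 1.5-fold (Mag, Cldn11 and Mal), and the median difference was 0.40. Of all probe sets, 11108 were higher with TG, 4.48% of the array by more than 1.5-fold. Between the strains 5 were higher and 7 lower, with a median of -0.23. The mean of their averages was 10.92 for SAMR1, 10.77 for SAMP8 and 11.17 after TG, and the myelin gene Mbp stood at 18.13, 17.77 and 18.24 in the same order. The part of this shift in the values of Omg and Mag was not tested. Of 11 neuron markers, 1 was higher and 1 lower by more than 1.5-fold between the strains (median 0.11) and 0 passed the limit with TG (median 0.00). Of 5 measured oligodendrocyte precursor markers, 0 passed the limit between the strains (median 0.21) and 1 was higher with TG (median 0.32). Over all probe sets, 5.00% were higher and 6.08% lower by more than 1.5-fold between the strains, and 4.48% and 3.74% with TG.

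Other adhesion genes of neurons encode proteins with leucine-rich repeats, as the Lingo genes do, and 31 of 32 listed genes were measured. Between SAMP8 and SAMR1, 5 were higher by more than 1.5-fold (Lrrtm1, Lrrtm3, Slitrk6, Islr2 and Lrig3) and 0 were lower, with a median of 0.21, where 5.00% and 6.08% of all probe sets did so. With TG, 0 were higher and 4 were lower (Slitrk1, Slitrk5, Islr2 and Lrig3), with a median of -0.26, beside 4.48% and 3.74% of all probe sets. Against SAMR1, TG-treated SAMP8 had 1 gene higher (Lrfn4) and 1 lower (Lrrn3), with a median of 0.01, beside 5.62% and 4.83%. Islr2 averaged 7.44 for SAMR1, 8.19 for SAMP8 and 7.46 after TG. Lrig3 stood at 5.93, 6.60 and 5.39 in the same order, and its difference with TG, -1.21, was the lowest of the list. By sign alone, 21 of the 31 were higher in SAMP8 than in SAMR1, as were Lingo3 and 10984 of the 22206 probe sets. With TG 23 were lower, as were Lingo3 and 10732 of all probe sets. The lowest strain difference among the adhesion genes was -0.32 (Lrrn3), against -2.62 for Lingo2. The SAMP8 arrays enter both counts.

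**Figure D5:**
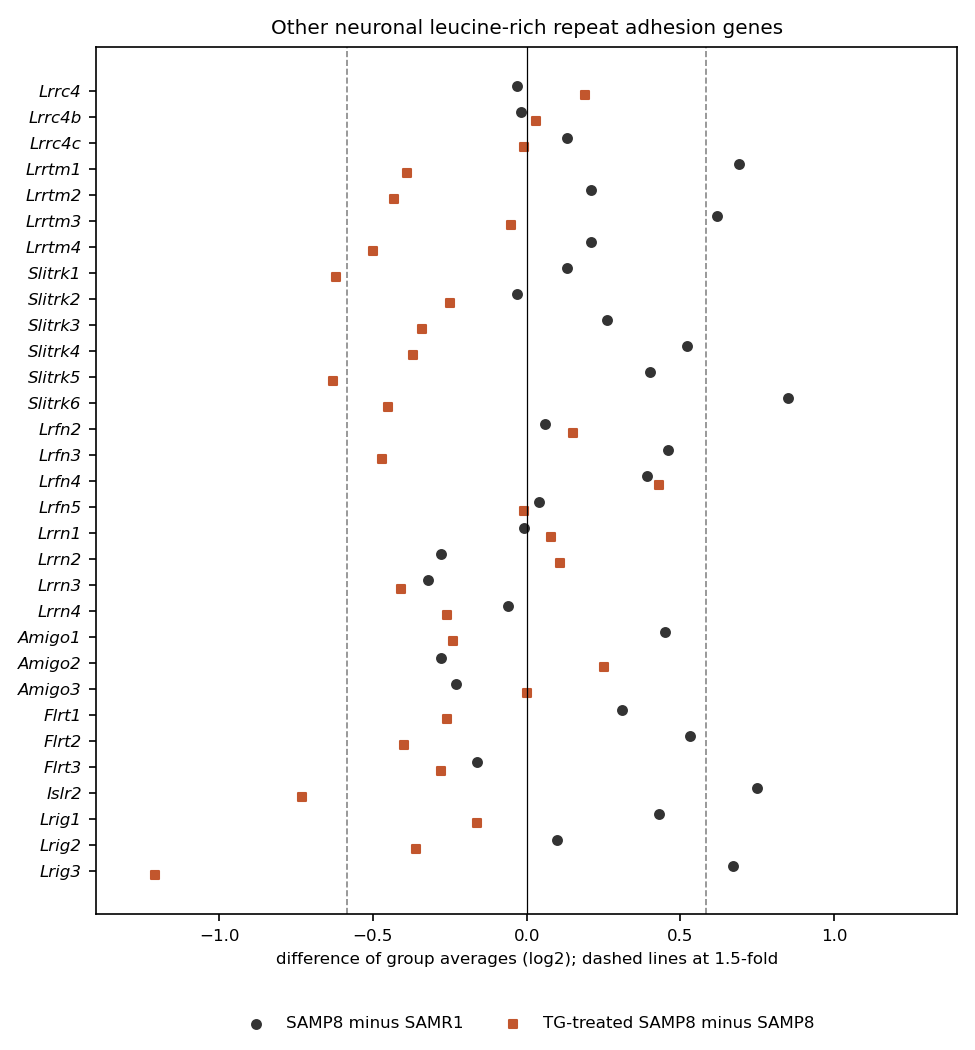
Differences of the group averages (log2, horizontal axis) of the 31 measured leucine-rich repeat adhesion genes outside the Lingo family; circles are SAMP8 minus SAMR1, squares are TG-treated SAMP8 minus SAMP8, and dashed lines mark 1.5-fold. The circles lie mostly to the right of 0 with a median of 0.21 and the squares mostly to the left with a median of -0.26.

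The tissue and its neighbours were checked by the same averages. Of 8 listed markers of the hippocampal subfields 7 were measured, with means over the list of 8.48 for SAMR1, 8.83 for SAMP8 and 8.60 after TG. Between the strains 2 of the 7 were higher by more than 1.5-fold and 0 were lower, beside 5.00% and 6.08% of all probe sets. With TG, 3 were higher and 4 lower by sign, with a median difference of -0.17. Prox1, a marker of dentate granule cells, was the only marker of this list past the limit with TG, at -0.85. Marker lists of tissues outside the hippocampus, and of vessels and glia, were compared as well, and they differed to unlike degrees. With TG, 4.48% of all probe sets were higher and 3.74% lower by more than 1.5-fold. Of 8 meninges markers, 4 were lower with TG by more than 1.5-fold and 0 were higher, and the mean of the list was 7.25, 7.52 and 6.69, with a median difference of -0.46 with TG. Vascular markers had means of 5.89, 7.03 and 6.42. Their strain differences ran from -0.83 (Tagln) to 4.32 (Abcb1a), with Acta2 at 2.19 and a median of 0.46, so the mean rests largely on Abcb1a and Acta2. With TG, 3 of the 6 vascular markers were lower and 1 was higher by more than 1.5-fold, with a median difference of -0.55. Thalamus markers had means of 8.61, 9.04 and 8.39, but with TG 2 of the 5 were lower by more than 1.5-fold and the median difference was -0.04. In the same order the means were for choroid plexus markers 6.05, 6.33 and 6.22, and for striatum markers 5.49, 5.50 and 5.31. Astrocyte markers had means of 11.38, 11.70 and 11.71 and microglia markers of 7.32, 7.56 and 7.52. Between the strains, 2 of 6 astrocyte markers were higher and 0 were lower by more than 1.5-fold (median 0.15). Of 6 microglia markers, 2 were higher and 1 was lower by that much (median 0.00). With TG, 0 astrocyte markers passed the limit (median -0.03) and 1 microglia marker was higher (median -0.17). The part of such tissue in the values of the 9 genes was not tested.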

How the data were processed

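Hippocampal RNA on 9 arrays, 3 per group, was grouped by the sample titles; that each array is 1 mouse is not stated in the labels. A text in each record about a macrophage cell line was not used, and the series text speaks of duplicates. The authors summarized the probe intensities by SST-RMA in the Transcriptome Analysis Console and deposited 2 tables with log2 group averages. The deposited columns of the authors' fold changes and p-values were not used. The SAMP8 averages were identical in both tables (largest difference 0.0), so TG-treated SAMP8 and SAMR1 were set side by side.

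From the deposited log2 averages, differences, counts past 1.5-fold and medians were computed with Python 3.11.15, numpy 2.4.6, pandas 2.3.3 and matplotlib 3.10.9, and the counting was tested on simulated data. Positions are from RefSeq on GRCm38, the build of the array annotation (mm10). For lists, the probe set with the highest mean was taken. Named are the 9 members, the genes of the 5 pathway lists, adhesion genes past 1.5-fold in a comparison, the 5 genes closest to Lingo2 and its nearest neighbours. Others (the overlapping genes, further neighbours, markers) were added with values in view. The members and lists were chosen with earlier results of these data known. The alternatives were other scalings, fold limits of 1.1 and 2, leaving out the dimmest 25% of probe sets, the mean over probe sets and a window of 2 Mb. The number of arrays limits the precision. Sequences and protein data were not used here.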

Additional observations from a re-analysis of the deposited data

How the results depend on the processing

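No paired analysis was possible because the columns hold group averages and carry no replicate numbers, and leaving out single arrays was not run for the same reason. Centring each column on its median shifts all genes alike, by at most 0.05 here. Of 27 values of single members under quantile normalization, 24 moved by at most 0.1, and none that was past 1.5-fold changed sign. The exceptions were in SAMP8 minus SAMR1, with -2.74 for Lingo2, 1.08 for Lingo3 and -0.17 for Lingo4. Centring brought 2 members past 1.5-fold in place of 1 with TG (Rtn4rl2 at -0.61 beside Lingo3) and 2 in place of 1 between TG-treated SAMP8 and SAMR1 (Lingo3 at 0.59 beside Lingo2). At a limit of 1.1-fold, 6 members passed in each of the 3 comparisons, where 65.5%, 63.4% and 64.9% of all probe sets did. At 2-fold, 2 members (Lingo2 and Lingo3) passed between the strains, 0 with TG and 1 (Lingo2) between TG-treated SAMP8 and SAMR1. Of all probe sets 2.22%, 0.761% and 1.81% did so, in that order. Lingo2 was picked on the strain comparison, so nothing is read from its part in these counts. For the pathway genes, the limit of 1.1-fold gave 14, 9 and 14 genes in the order strain, TG and TG-treated SAMP8 against SAMR1, and for the adhesion genes 21, 24 and 21. The shares of all probe sets at 1.1-fold are given above. With the window around Lingo2 narrowed to 2 Mb, 13 genes remained, all before it, of which 0, 1 and 2 passed 1.5-fold in that order, and their median between TG-treated SAMP8 and SAMR1 was -0.20. Of all probe sets, 11.1%, 8.21% and 10.5% passed 1.5-fold. Of 60 counts and medians recomputed under these alternatives, 44 kept within 0.1 or within 1.5 times. When the dimmest 25% of probe sets was dropped, Lingo4 was left out and the counts of members past 1.5-fold were 2, 1 and 1 as before. Of the probe sets kept, 12.6%, 9.64% and 12.3% were past it. The rounding of the averages to 0.01 leaves Lingo2 and Rtn4rl2 with TG, both at 0.58 in size, undecided against the limit. With 1 average per group and the authors' p-values not used, no spread between arrays was set beside any of these values.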
